A study of Homo sapiens with 3 samples.

Results

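The Fanconi anaemia and homologous recombination genes were taken as 33 named genes, and 29 of them had a probe set that carries 1 gene symbol. They were followed among 19775 genes measured in KYSE140, an established human oesophageal squamous carcinoma line. FANCA, FANCD2, BRCA2 and RBBP8 had no such probe set and were not analysed here. Membership rests on gene names alone, and each gene was represented by its brightest probe set, the one with the highest mean log2 intensity over the 3 arrays. The 29 members had 58 probe sets in all.

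Cells of the untreated group (1 array) were grown in serum-containing RPMI medium, and cells of the cisplatin group (2 arrays, B1 and B2) had the same medium and a labelled 10 mM of cisplatin for 12 h. No allele, vector or further agent is labelled for either group. Cisplatin is usually given to cultures at micromolar doses, which puts the labelled unit in doubt. The labels do not say whether B1 and B2 were separate cultures, so what kind of spread lies between them is not known. Over all genes B2 differed more from B1 (SD 0.56 on the log2 scale) than B1 did from untreated (SD 0.33). Because there is 1 untreated array, each difference of B1 and of B2 uses the same baseline.

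Cisplatin binds DNA bases, and where it ties the strands to each other the interstrand crosslink blocks replication forks. In the Fanconi pathway a core complex with the conjugating enzyme UBE2T attaches ubiquitin to FANCI and FANCD2 at the stalled fork, USP1 removes it, and nucleases on the SLX4 scaffold cut the crosslink free. The break left behind is mended by homologous recombination: its ends are resected, BRCA1 with BARD1, PALB2 and BRCA2 prepares the single strand to pair with an intact copy, and helicases and nucleases resolve the joined molecules. Many of these genes are expressed most in S phase, and E2F factors are known regulators of several of them.

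Of the 29 measured members, 16 (55.2%) were lower in both cisplatin arrays than in the untreated array and 6 (20.7%) were higher. Among all 19775 genes, 27.4% were lower in both and 39.2% were higher in both. When the deposited values were quantile normalized a further time, the members' split was 10 lower to 6 higher, beside 26.9% and 39.3% of all genes. The median member differed by -0.16 (log2, cisplatin minus untreated) in B1 and by -0.16 in B2, against 0.03 and 0.05 for the median of all genes. With probe sets whose identifier has no letter tag such as _s, _x, _a or _r the members' median was -0.14 in B1 and -0.03 in B2. With the mean over all probe sets it was -0.08 and -0.13, and after the quantile normalization -0.09 and -0.12. Among genes with a mean log2 level of at least 6, 15 of 25 members were lower in both arrays (34.2% of all such genes) and 4 were higher (29.8%). In bulk RNA, fewer expressing cells and less RNA per cell cannot be told apart. Intensities below are linear values in the order untreated, B1 and B2, and differences are log2, cisplatin minus untreated.

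The differences were small: 1 member, BRIP1, was at least 1.5-fold lower in both arrays (2.65% of all genes were) and 0 members were at least 1.5-fold higher in both (0.956% of all genes). After a further quantile normalization 0 members were that much lower in both. At a lower threshold of 0.32 on the log2 scale, 5 members were lower in both arrays (BRIP1, BARD1, BRCA1, RAD50 and BLM), a share of 17.2% beside 6.5% of all genes, and 0 were higher in both, beside 5.91%.

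No member passed the test. In a limma fit over all genes with Benjamini-Hochberg adjustment, 0 of 19775 genes and 0 of 29 members had an adjusted p under 0.05 (0% of all genes called), and the members' adjusted p ran from 0.969 to 0.999. At an unadjusted p under 0.05 the fit held 151 higher (0.764%) and 414 lower (2.09%) genes, and 0 members. Its 1 residual degree of freedom came from B1 against B2, so a p above the threshold does not show that a gene was unaltered. Each difference was therefore also set against the distance between B1 and B2. As that distance holds no measure of how untreated arrays vary, the counts by it are descriptions and no test. In 8 members both cisplatin arrays lay below the untreated array by at least that distance (27.6%, beside 12.2% of all genes): BRIP1, BARD1, RAD50, BRCA1, FANCC, BLM, MUS81 and NBN. In 3 members, FANCB, XRCC3 and EME1, both lay above it by at least that distance (10.3%, beside 18.9% of all genes). FANCB and XRCC3 were dim, with mean log2 levels below 6. Among genes with a mean log2 of at least 6, EME1 was the 1 member left above (11.3% of all such genes). With each array centred on its median the counts below and above were 8 and 1 (14.9% and 15.2% of all genes). After a further quantile normalization they were 5 and 3 (12% and 18.5% of all genes).

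The sequences around the starts of these genes are shown because they are the members that stood apart from untreated by more than the cisplatin arrays stood apart from each other. The sequences came from a set of RefSeq promoter entries on GRCh38.p14 that held 30 of the 33 genes. FANCI, NBN and RAD54B were not in that set. Each line runs from 100 bases before the annotated start to 30 bases from it, 5′ to 3′ on the gene's own strand. Capitals mark the E2F words searched, which were TTTCCCGC, TTTGGCGC, TTCGCGC and GCGGGAA on both strands. The reverse of the first contains the last, so they overlap.

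BRIP1 (chr17:61863499-61863628, minus strand): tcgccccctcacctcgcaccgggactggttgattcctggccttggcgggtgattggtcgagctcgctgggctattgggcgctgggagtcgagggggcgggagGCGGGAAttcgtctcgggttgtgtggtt
BARD1 (chr2:214809654-214809783, minus strand): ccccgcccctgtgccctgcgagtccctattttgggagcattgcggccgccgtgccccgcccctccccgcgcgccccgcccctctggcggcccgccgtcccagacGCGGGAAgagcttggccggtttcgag
RAD50 (chr5:132556877-132557006, plus strand): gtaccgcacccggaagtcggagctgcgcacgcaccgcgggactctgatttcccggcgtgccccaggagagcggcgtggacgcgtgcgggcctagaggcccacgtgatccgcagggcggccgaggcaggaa
BRCA1 (chr17:43125335-43125464, minus strand): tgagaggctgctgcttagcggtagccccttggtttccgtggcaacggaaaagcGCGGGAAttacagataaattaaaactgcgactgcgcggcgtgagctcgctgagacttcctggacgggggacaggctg
FANCC (chr9:95317680-95317809, minus strand): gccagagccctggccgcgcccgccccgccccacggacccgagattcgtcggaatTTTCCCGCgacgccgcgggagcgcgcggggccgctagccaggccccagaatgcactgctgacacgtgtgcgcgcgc
BLM (chr15:90717246-90717375, plus strand): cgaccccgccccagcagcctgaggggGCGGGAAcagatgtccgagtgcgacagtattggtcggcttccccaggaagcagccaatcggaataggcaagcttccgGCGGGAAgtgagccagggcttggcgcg
MUS81 (chr11:65860333-65860462, plus strand): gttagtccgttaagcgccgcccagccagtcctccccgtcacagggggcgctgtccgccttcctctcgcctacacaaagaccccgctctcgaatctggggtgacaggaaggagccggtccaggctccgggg

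The lines above are the members below untreated, and the lines that follow are those above it.

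EME1 (chr17:50373129-50373258, plus strand): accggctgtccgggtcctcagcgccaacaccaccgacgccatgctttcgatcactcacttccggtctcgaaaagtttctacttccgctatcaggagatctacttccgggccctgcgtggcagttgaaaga
XRCC3 (chr14:103715422-103715551, minus strand): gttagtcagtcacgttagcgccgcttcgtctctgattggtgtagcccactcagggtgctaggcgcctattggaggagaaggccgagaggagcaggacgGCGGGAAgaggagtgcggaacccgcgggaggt
FANCB (chrX:14873040-14873169, minus strand): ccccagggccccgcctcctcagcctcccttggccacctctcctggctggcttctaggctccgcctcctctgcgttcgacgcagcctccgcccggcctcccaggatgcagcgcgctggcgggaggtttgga

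An E2F word stood in the printed stretch of BRIP1, BARD1, BRCA1, FANCC and BLM among the 7 lower members shown, and not in those of RAD50 and MUS81. BLM had 2, at -74 and at 4 from the start, counted with the first transcribed base as 1. BRCA1 and FANCC each had 2 annotated starts in the table, and the start with a word in the printed stretch is shown. The 300-base window of FANCC's other start also held a word, TTCCCGC at -115. Among the 3 higher members XRCC3 had a word, which began at -2, and EME1 and FANCB had none. Over the whole 300-base windows, 17 of 30 members held an E2F word (56.7%), beside 14.6% of the 15384 array genes with an entry and 10.9% of all 27305 genes in the table. Of the 16 measured members with a word 10 were lower and 3 higher in both arrays, and of the 10 measured members without it 4 were lower and 3 higher. Of all genes, with or without a word, 27.4% were lower and 39.2% higher in both. Shares of array genes split by the word were not computed. The members' median differences were -0.16 with a word and -0.08 without, beside 0.04 for all genes. The word thus stood in members of every direction. In percentage points the other motifs were nearer the share of array genes: GGGCGG (GC box) in 76.7% against 64.6%, CCAAT in 43.3% against 41.7%, TTTGAA or TTCGAA (CHR) in 13.3% against 17.2%, TATAAA in 3.33% against 11.5% and TGACGTCA (CRE) in 10% against 3.1%. TATAAA and TGACGTCA are rarer words, held by 1 and 3 members, so their ratios to the array share rest on few genes.

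BRCA1 and its partners differed most as a group. All 4 measured members were lower in both arrays, beside 27.4% of all genes. In 3 of them it was by more than the cisplatin arrays differed, beside 12.2% of all genes. The group's median difference was -0.49 in B1 and -0.56 in B2. These 3, BRIP1, BARD1 and BRCA1, reach over 184, 84.0 and 126 kb of the chromosome. Of all genes longer than 42.0 kb, 43.9% were lower in both. BRIP1 (FANCJ), a DNA helicase that binds BRCA1, measured 367 untreated, 242 in B1 and 164 in B2. Both cisplatin arrays were thus below untreated, at 66% and 44.8% of it, and B2 was the lower. The mean log2 difference was -0.88 (SE 0.33, adjusted p = 0.969 by limma), at the 3.02 percentile of all genes. BARD1, which forms a ubiquitin ligase with BRCA1, measured 626 untreated, 406 in B1 and 425 in B2. The cisplatin arrays lay close together at 64.8% and 67.9% of untreated, with an SD of 0.05 between them against a mean difference of -0.59 (SE 0.19, adjusted p = 0.969 by limma). BRCA1 itself had 459, 351 and 312, so that it was at 76.4% and 67.9% of untreated, a mean log2 difference of -0.47 (SE 0.20, adjusted p = 0.969 by limma). PALB2, the bridge between BRCA1 and BRCA2, had 374, 346 and 370. Its B2 value was 98.7% of untreated, and of its log2 differences of -0.11 and -0.02 the one in B2 was smaller than the distance of 0.09 between the arrays.

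**Figure D1:**
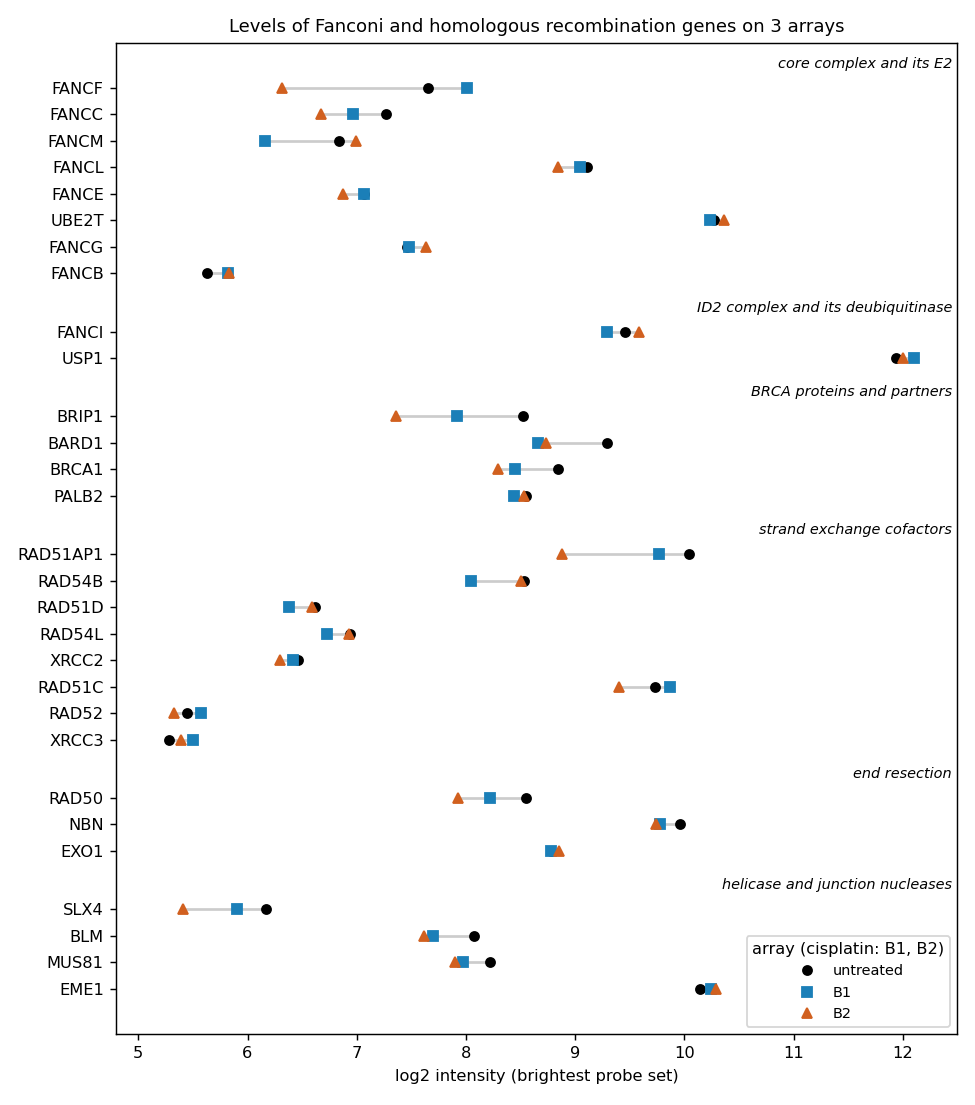
Log2 intensity of the 29 measured members by role, with a circle for the untreated array, a square for B1 and a triangle for B2, 1 array each. BRIP1, BARD1, BRCA1, RAD50 and BLM have both cisplatin symbols to the left of the circle, and in FANCF and FANCM the circle lies between them.

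The core complex did not differ as a unit. Of its 8 measured genes with UBE2T, 2 were lower and 2 higher in both arrays, beside 27.4% and 39.2% of all genes. The medians were -0.02 in B1 and -0.05 in B2. FANCC, a subunit of the complex, measured 154 untreated, 125 in B1 and 102 in B2. Both arrays were below untreated, by -0.30 and -0.59. FANCL, the ubiquitin ligase subunit, had 553, 525 and 457, with differences of -0.08 and -0.28 that were smaller in B1 than the distance between the arrays. FANCB, a subunit that pairs with FANCL, was dim and higher in both arrays, with 49.5 untreated, 56.5 in B1 and 56.9 in B2. FANCG had 176, 178 and 198, and FANCE had 134, 134 and 117, so that in both genes B1 was close to untreated and B2 stood apart, above in FANCG and below in FANCE. UBE2T, the conjugating enzyme, had 1230, 1200 and 1310, and its mean of 0.03 turned to -0.01 with median centring.

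In FANCF and FANCM the cisplatin arrays lay on opposite sides of untreated. FANCF, an adaptor of the core complex, measured 200 untreated, 258 in B1 and 79.9 in B2. B2 was at 39.9% of untreated while B1 was at 129%, a distance of 1.69 on the log2 scale, the widest of the 29 members. FANCM, the translocase that anchors the complex to DNA, had 115, 71.5 and 127. Here B1 was at 62.3% of untreated and B2 at 111%. The mean differences of these genes (-0.48 and -0.27) therefore stand for neither array.

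Of the ubiquitinated pair only FANCI was measured, and neither it nor the deubiquitinase differed in both arrays by more than the arrays differed from each other. FANCI, which is ubiquitinated together with FANCD2, measured 702 untreated, 627 in B1 and 764 in B2, so the untreated value lay between the cisplatin values. Its mean of -0.02 turned to 0.04 after a further quantile normalization. USP1, which removes ubiquitin from FANCD2, had 3930, 4380 and 4080. Both cisplatin values were higher, at 111% and 104%, but by less in B2 than the arrays differed.

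Among the genes that assist strand exchange, RAD51C, RAD51D and XRCC2 each had at least 1 cisplatin array nearer to untreated than the cisplatin arrays were to each other. RAD51C measured 851 untreated, 934 in B1 and 676 in B2, RAD51D had 98.0, 83.4 and 96.0, and XRCC2 had 88.2, 85.5 and 78.8. XRCC3, the partner of RAD51C, had 38.9, 45.3 and 42.0, with both cisplatin arrays above untreated by 0.22 and 0.11. RAD51AP1, which stimulates strand pairing, had 1050, 874 and 470. Both arrays were below untreated, but B1 (82.9%) and B2 (44.6%) stood further apart than B1 stood from untreated, and the mean of -0.72 had an SE of 0.48 (adjusted p = 0.969 by limma). RAD54B, a DNA translocase, had 370, 266 and 362, with B1 at 71.9% of untreated and B2 at 97.8%. Its relative RAD54L had 123, 106 and 122, with B2 at 99.6% of untreated. RAD52, an annealing factor, had 43.9, 47.7 and 40.2, so that untreated lay between the arrays.

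End resection was split. RAD50, the coiled-coil ATPase that joins broken ends in a complex with MRE11 and NBN, measured 376 untreated, 298 in B1 and 244 in B2. Both were below untreated, by -0.34 and -0.62, and the mean of -0.48 had an SE of 0.23 (adjusted p = 0.969 by limma). NBN had 995, 881 and 853, a smaller difference of -0.18 and -0.22. EXO1, the exonuclease of long-range resection, had 440, 441 and 460, with B1 at 100% and B2 at 105% of untreated, and its mean of 0.03 turned to -0.01 with median centring.

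Among the helicase and junction nucleases 3 of 4 were lower in both arrays, beside 27.4% of all genes. BLM, the Bloom syndrome helicase, measured 269 untreated, 207 in B1 and 197 in B2. The cisplatin arrays were at 77.1% and 73.4% of untreated with an SD of 0.05 between them, and the mean log2 difference was -0.41 (SE 0.19, adjusted p = 0.969 by limma). MUS81, the junction nuclease, had 299, 250 and 238, or -0.26 and -0.33. Its partner EME1 had 1130, 1210 and 1250, or 0.10 and 0.15, so that these subunits of the same enzyme lay on opposite sides of untreated. SLX4, the scaffold that holds MUS81, had 72.1, 59.5 and 42.6, with B1 and B2 further apart than B1 and untreated.

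**Figure D2:**
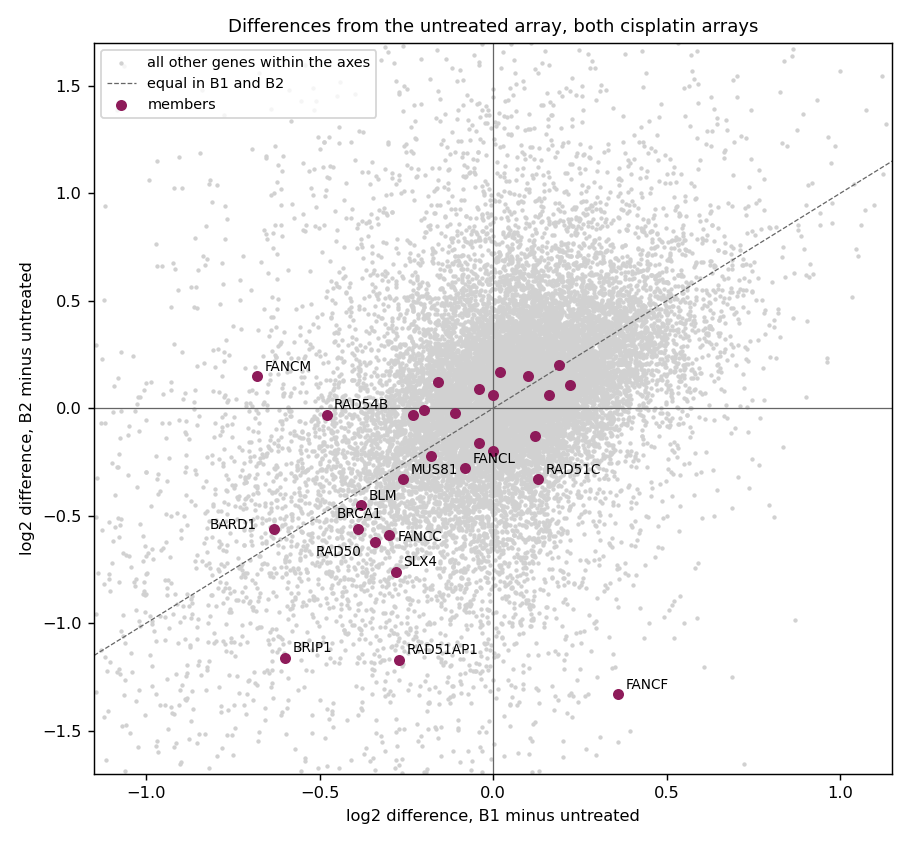
Log2 difference from the untreated array in B1 (horizontal) and B2 (vertical) for the 29 members (filled) and the other genes within the axes (grey). The dashed line marks equal differences. BARD1, BRCA1, BLM and MUS81 lie near it in the lower left, and FANCF (0.36 and -1.33) and FANCM (-0.68 and 0.15) lie far from it.

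The other probe sets of a gene give a further reading of it that the choice of the brightest did not use, though on the same 3 arrays. Of the 29 other probe sets, 17 were lower in both arrays, 4 higher and 8 apart. Among all 41091 probe sets with 1 symbol, 28.9% were lower in both arrays and 38% higher. In 4 of the 16 members with several probe sets, every probe set was lower in both arrays: BARD1, BRCA1, BRIP1 and RAD51D. The share of all genes with several probe sets that do so was not computed. RAD51D was close to untreated in B2, at -0.03 and -0.14. The 3 probe sets of BARD1 differed by -0.59, -0.53 and -0.71 on average over both arrays. The 2 of BRIP1 differed by -0.88 and -0.81, and the 2 of BRCA1 by -0.47 and -0.44. In RAD50 the brighter 2 of 3 were lower in both arrays (-0.48 and -0.39), and the dimmest was apart at 0.06 and -0.30.

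Several values rested on the probe set chosen. The 2 probe sets of SLX4 went opposite ways, at -0.28 and -0.76 for the brightest and at 0.33 and 0.51 for the other, so the mean over both was -0.05 against -0.52. Untreated, the brightest was at 72.1 and the other at 38.5. In FANCC the 2 dim probe sets did not follow the brightest, and the mean over its 3 was -0.14. In NBN 3 of 5 probe sets were lower and 1 was higher in both arrays, and the mean over all was -0.02. The higher probe set was very dim, at 8.93, 11.2 and 11.6, and counted as much in that mean as the others. RAD52 was the reverse case: its brightest probe set averaged near 0, and the other 3 were lower in both arrays, by -0.60, -0.40 and -0.40 on average. Every probe set of RAD52 was dim, at 43.9 for the brightest and 39.9, 29.6 and 25.8 for the others in the untreated array. In FANCB 3 of 4 probe sets were higher in both arrays and 1 was lower, at dim untreated intensities of 34.5 to 58.6. EME1's other probe set was apart, at 0.08 and -0.02. The contrast between arrays in FANCF and FANCM was seen in every probe set: both of FANCF were low in B2 (-1.33 and -0.83) and less low or above untreated in B1 (0.36 and -0.19), and all 4 of FANCM were low in B1 (-0.68, -0.77, -0.25 and -0.75) and near untreated in B2 (0.15, 0.00, 0.01 and -0.03).

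**Figure D3:**
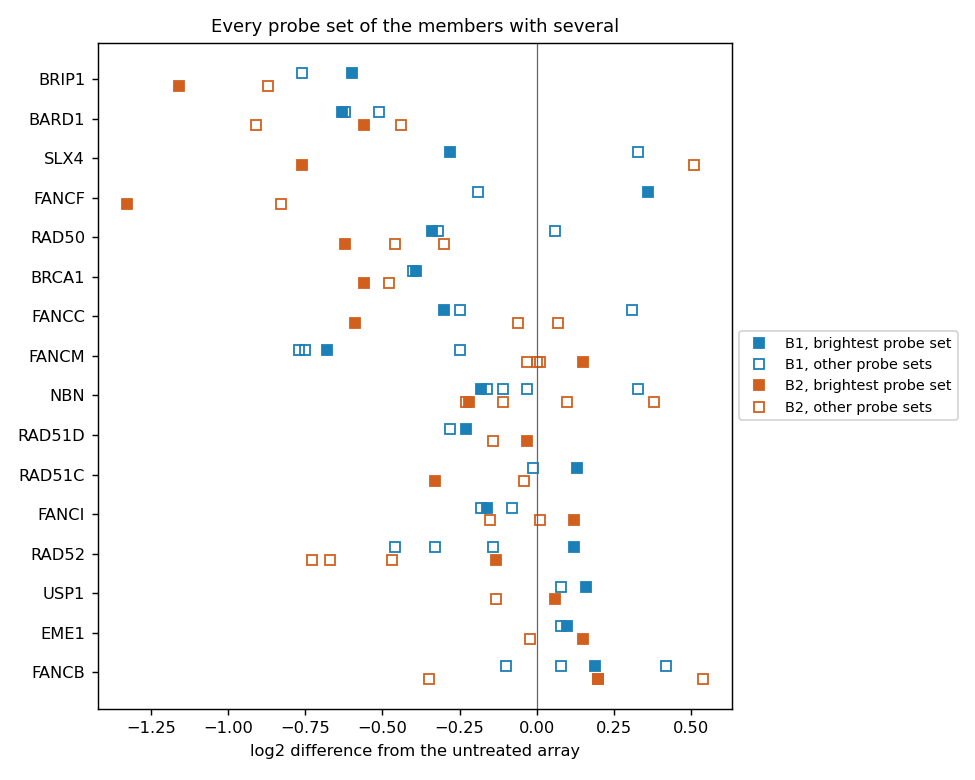
Log2 difference from untreated of each probe set of the 16 members with several, with B1 in blue and B2 in orange, and the brightest probe set filled. Every symbol of BARD1, BRCA1, BRIP1 and RAD51D lies left of 0, and the symbols of SLX4 lie on both sides.

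Genomic span, meaning how far a gene's annotation reaches on the chromosome, moved with the differences. The measured members span 3.29 kb (FANCF) to 219 kb (FANCC), with a median of 42.0 kb, beside 24.7 kb for all genes. Across the 29 members Spearman's rank correlation between span and difference was -0.53 in B1 and -0.23 in B2 (Pearson's r with log10 span -0.53 and -0.06). Over all 19735 genes with a span it was -0.33 and -0.20. At a mean log2 level of at least 6 the correlation was -0.56 and -0.31 over 10203 genes. Over the 25 members at that level it was -0.7 and -0.37. The members share the same arrays and the same untreated baseline, so these values are descriptions. Of the 14 members longer than the median member, 9 were lower and 1 higher in both arrays, and of the 15 others 7 were lower and 5 higher. Among all genes the same split of span gave 43.9% lower in both for the longer genes and 18.2% for the shorter.

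BARD1, BRCA1, BLM, RAD50, BRIP1 and FANCC span 84.0, 126, 98.8, 89.4, 184 and 219 kb. Genes of like span had running medians between -0.13 (RAD50) and -0.23 (FANCC) in B1 and between -0.05 (BRIP1) and -0.11 (FANCC) in B2. With those medians subtracted, BARD1 stood at -0.49 and -0.48, BRIP1 at -0.42 and -1.10, BLM at -0.23 and -0.37, and BRCA1 at -0.21 and -0.48. FANCC kept -0.07 in B1 and -0.48 in B2. After this subtraction 16 members were below 0 in both arrays and 4 above (32.6% of all genes each way), and 5 were below by more than the arrays differed (13.4% of all genes). Span did not order all members: FANCB spans 184 kb and was higher in both arrays, and MUS81, at 7.98 kb, and RAD51AP1, at 21.2 kb, were lower in both. The part of span in these differences was not tested further.

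**Figure D4:**
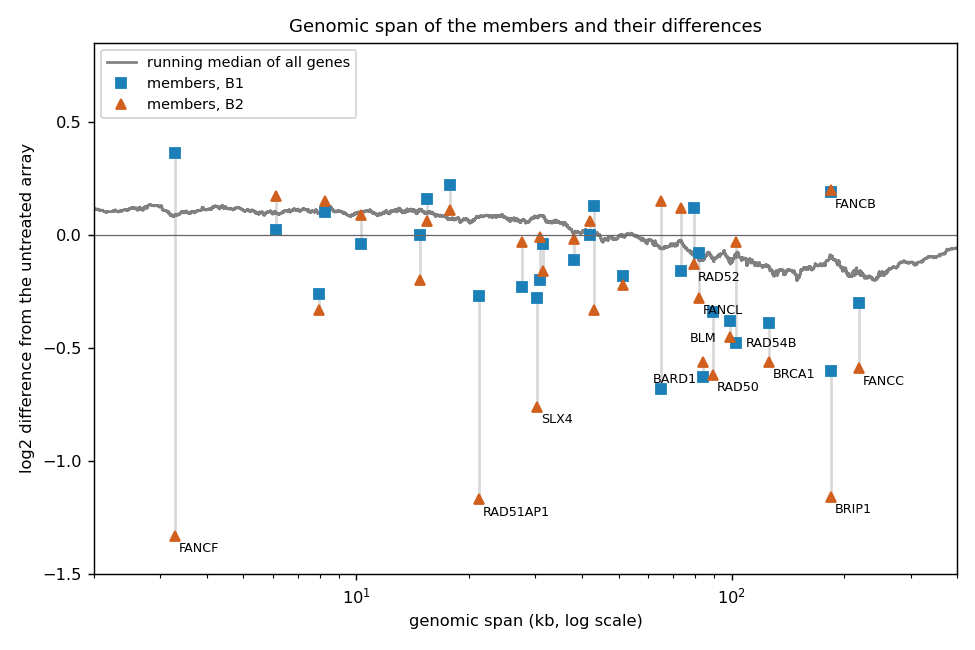
Log2 difference from untreated of the 29 members against genomic span (kb, log scale), with a square for B1 and a triangle for B2 joined by a line. The grey curve is the running median, over 500 genes of like span, of the difference averaged over B1 and B2. BARD1, BRCA1, RAD50, BLM, BRIP1 and FANCC lie below the curve in both arrays, and FANCB, as long as BRIP1, lies above it.

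Other genes of the same pathways outside the 33 were read from a separate list of 30, of which 28 were measured. In the limma fit 0 of the 28 passed in either direction. In both arrays 13 were lower and 9 higher, beside 27.4% and 39.2% of all genes. The medians were -0.06 in B1 and -0.01 in B2, beside 0.03 and 0.05 for all genes. Beyond the distance between the arrays 8 were lower and 4 higher, beside 12.2% and 18.9% of all genes. DNA2, a nuclease and helicase of end resection, measured 225 untreated, 164 in B1 and 148 in B2. WRN, the Werner syndrome helicase, had 207, 134 and 158, and ATAD5, which helps USP1 act and unloads PCNA, had 193, 139 and 140. In all 3 both cisplatin arrays were below untreated, by -0.39 to -0.63. POLN, a DNA polymerase implicated in crosslink repair, went the other way, with 44.1, 66.0 and 58.0. MRE11, the nuclease partner of RAD50 and NBN, had 475, 407 and 504.

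The arrays as a whole differed in ways that touch these values. Over all genes the log2 differences had an SD of 0.33 for B1 minus untreated, 0.60 for B2 minus untreated and 0.56 for B2 minus B1. Of 10 squamous markers 7 were measured, and their summed intensity was 23900 untreated, 24500 in B1 and 35800 in B2. SFN had 8780, 9460 and 12600, PERP had 6510, 6590 and 9320, and KRT5 had 1220, 1340 and 4250. KRT14 had 278, 276 and 2370, and DSG3 had 375, 321 and 790. EPCAM was lower in both cisplatin arrays, with 4550, 4500 and 4190, and CDH1 had 2190, 1970 and 2270. KRT6A, KRT17 and TP63 were not analysed here. Of 10 leukocyte markers 9 were measured, and they summed to 976, 934 and 340, most of which was LCP1 (722, 665 and 69.1), while PTPRC, which defines the class, was at 6.24, 5.24 and 5.50. Fibroblast markers (10 of 10) summed to 348, 378 and 469, and endothelial markers (10 of 10) to 188, 228 and 215. Of the fibroblast sum, THY1 held 59.5, 61.6 and 144, and COL1A1 held 122, 155 and 159. These shifts between B2 and the other arrays stand beside the members low in B2 (FANCF, RAD51AP1, BRIP1 and SLX4), and their part in those values was not tested.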

How the data were processed

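Log2 expression of 1 untreated and 2 cisplatin arrays was compared. The authors deposited 1 linear intensity per probe set for 54675 probe sets, made with RMA (background correction, normalization between arrays and probe summary), per the submitters' processing notes. The RMA version is not stated, and no detection calls were used. Deposited values lay between 3.03 and 19645, with medians of 34.8, 35.9 and 35.6 (untreated, B1, B2). Log2 was taken without a pseudocount. Dim and undetected probe sets look alike without calls, and 3 arrays limit precision.

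Control probe sets (62) were dropped. Of the others 41091 carried 1 gene symbol and 1801 carried several. Symbols were updated by gene number to GRCh38.p14. The limma model (version 3.58.1, R 4.3.3, lmFit with eBayes) was fitted over all 19775 genes with the Benjamini-Hochberg adjustment. Simulated data served to check that differences of known size were estimated at about that size. That check does not show how many true differences the test can call. Each standard error (SE) mixes the B1 to B2 spread with a prior pooled over genes, and takes the single untreated array to vary as the others do.

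The members and lists were chosen with earlier results of these data known. All members are named, and of the other pathway genes the 4 with the largest mean difference among those on 1 side of untreated. MRE11 is named outside that rule, after its values were seen, as the partner of 2 members. Alternatives covered the probe set chosen, a further quantile normalization, median centring, a filter on dim genes, the variance prior, the size threshold, the span trend and each cisplatin array alone.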

Additional observations from a re-analysis of the deposited data

How the results depend on the processing

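Under every alternative fit tried, 0 genes and 0 members passed limma's adjusted p. No paired analysis was possible because the untreated group has 1 array without a number, and with 1 cisplatin array left out no test remained. The median member difference moved by less than the median member's SD between the cisplatin arrays under each alternative, but ran from -0.21 to -0.08 in B1 and from -0.20 to -0.03 in B2 against -0.16 in each. Members lower in both arrays numbered 10 instead of 16 after a further quantile normalization, beside 26.9% of all genes. They also numbered 10 with probe sets whose identifier has no letter tag such as _s, _x, _a or _r, beside 27.2% of all genes. That last count is out of fewer than 29 members, so it cannot be set against 16 directly. With B1 or B2 alone 19 to 20 were lower, beside 43.3% to 44.8% of all genes, and 9 to 10 higher, beside 55% to 56.6%. Members at least 1.5-fold lower numbered 2 with the mean over all probe sets, 2 with median centring, 0 after quantile normalization, 0 with the span trend removed, and 3 to 6 with B2 or B1 left out (of all genes 1.48%, 2.98%, 2.16%, 1.83%, and 5.09% to 10.1%, against 2.65%); at a threshold of 0.32 on the log2 scale there were 5 and at 2-fold 0. Members below untreated by more than the arrays differed numbered 4 with the restricted probe sets (fewer members), 5 after quantile normalization and 5 with the span trend removed, instead of 8. Of all genes the shares were 12.2%, 12% and 13.4%, against 12.2%. Those above numbered 1 instead of 3 with median centring, with a mean log2 of at least 6 and with the span trend removed. Of all genes the shares were 15.2%, 11.3% and 15.4%, against 18.9%. The span correlation of the mean difference was -0.32 over the 29 members, -0.48 for the 25 with a mean log2 of at least 6, and -0.23 to -0.53 with 1 cisplatin array. Over all genes these values were -0.28, -0.45, and -0.20 to -0.33.

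Of the 29 mean differences, 0 changed sign with the mean over all probe sets. With median centring EXO1 and UBE2T each moved to -0.01, and after quantile normalization FANCI moved to 0.04 and PALB2 to 0.03. With 1 cisplatin array the mean changed sign for FANCI (-0.16 to 0.12), FANCM (-0.68 to 0.15), RAD51C (-0.33 to 0.13), RAD52 (-0.13 to 0.12), FANCF (-1.33 to 0.36), FANCE (-0.20 to 0.00) and UBE2T (-0.04 to 0.09). The cause of these changes between settings was not tested.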
